A study of Mus musculus with 8 samples.

Results

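Keratin-associated protein genes (symbol Krtap and a family number) were followed in irradiated mouse skin treated with enalapril. On the Agilent arrays of the study, 34 of 41127 probes carried such a name, and all 34 were taken, whatever their signal. After names were updated through a RefSeq table they stood for 27 of 19489 genes: 12 probes of 10 high-sulfur genes, 5 probes of 5 ultra-high-sulfur genes and 17 probes of 12 high-glycine-tyrosine genes. Expression was measured in whole dorsal skin of 8 male SKH-1 mice aged 19 weeks, 1 mouse per array. SKH-1 is a hairless strain that loses its coat after the first growth of hair. The backs of all 8 mice had received UVB for 10 weeks. From 1 week after the last exposure, the backs of 4 mice were painted 5 times a week for 2 weeks with enalapril maleate (1% w/v, in 30 vol % ethanol), and those of the other 4 with the ethanol alone (vehicle). Enalapril inhibits angiotensin-converting enzyme. No unirradiated or untreated group was compared here. The question for these genes was whether their levels differed between enalapril and vehicle, and how they varied from mouse to mouse.

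Keratin-associated proteins fill the space between the keratin filaments of the hair shaft and bind them together, the sulfur-rich ones through disulfide bonds of their many cysteines. They are made late, in the cortex and cuticle of the growing shaft, after the hair keratins have appeared, and are little used elsewhere in skin. High-sulfur and ultra-high-sulfur families differ in their cysteine content, and the high-glycine-tyrosine families are small proteins rich in those residues. In whole skin a lower signal from fewer shaft-forming cells and one from less RNA per cell cannot be told apart.

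The genes lie in clusters, and the stretches in front of them show how alike and unlike they are. RefSeq promoters of GRCm38.p6 were found for 25 of the 27 genes, Krtap9-1 and Krtap12-1 being named only. Shown are the 250 bases before the start of the gene with the brightest probe in each class, then the most alike pair of all, Krtap19-1 and Krtap19-2, whose probes varied unlike most of the others. The sequences lie at chr7:142297135-142297384 on the minus strand (Krtap5-1), chr11:99566631-99566880 minus (Krtap3-1), chr16:89083774-89084023 plus (Krtap6-3), chr16:88869411-88869660 minus (Krtap19-1) and chr16:88874270-88874519 minus (Krtap19-2). Capitals mark TATAAA and TATATAA, forms of the TATA box that can overlap, the latter searched for after the sequences were seen.
Krtap5-1: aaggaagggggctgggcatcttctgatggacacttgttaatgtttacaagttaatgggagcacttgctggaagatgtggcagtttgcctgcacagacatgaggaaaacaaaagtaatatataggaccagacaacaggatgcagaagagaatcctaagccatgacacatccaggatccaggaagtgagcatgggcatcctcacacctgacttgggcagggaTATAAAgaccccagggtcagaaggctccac
Krtap3-1: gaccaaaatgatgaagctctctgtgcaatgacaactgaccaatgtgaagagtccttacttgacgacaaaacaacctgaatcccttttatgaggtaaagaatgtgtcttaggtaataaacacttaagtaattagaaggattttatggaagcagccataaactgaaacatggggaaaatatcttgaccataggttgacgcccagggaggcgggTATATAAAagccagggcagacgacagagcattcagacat
Krtap6-3: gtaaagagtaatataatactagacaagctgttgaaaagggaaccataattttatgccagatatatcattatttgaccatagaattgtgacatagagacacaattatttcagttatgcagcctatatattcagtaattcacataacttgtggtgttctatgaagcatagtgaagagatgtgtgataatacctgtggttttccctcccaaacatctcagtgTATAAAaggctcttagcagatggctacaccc
Krtap19-1: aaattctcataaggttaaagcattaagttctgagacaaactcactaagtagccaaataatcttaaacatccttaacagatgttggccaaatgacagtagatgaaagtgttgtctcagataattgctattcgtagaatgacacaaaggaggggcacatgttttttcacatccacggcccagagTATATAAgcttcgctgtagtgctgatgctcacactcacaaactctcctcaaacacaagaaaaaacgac
Krtap19-2: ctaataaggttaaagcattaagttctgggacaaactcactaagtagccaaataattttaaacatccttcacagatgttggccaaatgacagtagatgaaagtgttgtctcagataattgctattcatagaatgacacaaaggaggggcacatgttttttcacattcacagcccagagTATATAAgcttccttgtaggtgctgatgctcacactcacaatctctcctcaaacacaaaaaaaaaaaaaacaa
TATAAA began 30 bases before the start in Krtap5-1, 37 in Krtap3-1 and 31 in Krtap6-3. Both family 19 promoters shown have the other form, TATATAA, beginning 68 and 73 bases before the start. On either strand 17 of the 25 promoters held TATAAA, against 12.4% of 32851 promoters of the same length. On the gene's own strand and starting 20 to 40 bases before the gene, 11 of 25 did, against 1.99% of all promoters. TATATAA was in 13 of 25, against 3.04%. In family 19, TATAAA was found in 1 of 5 promoters and TATATAA in 4, and in the other families in 16 and 9 of 20. The letters bound by the hair regulator HOXC13 (TTTATNAA, TTTATNAG, TTTATNGA, TTTATNGG, TTAATNAA, TTAATNAG, TTAATNGA or TTAATNGG, either strand, some of which can overlap TATAAA) were in 14 of 25, against 17.2%. Those of LEF1 and its TCF relatives (CTTTG and then any 2 of A or T, either strand) were in 6 of 25, against 14.8%. Krtap19-1 and Krtap19-2 shared 90.6% of aligned promoter bases, while the median over all 300 pairs was 51.7%.

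The members were readily measured in this hairless skin. Of the 34 probes, 30 were well above background on all 8 arrays, and per array 30 to 32 were. Levels are given as log2 of the processed intensity minus the 75th percentile of the array, so that 0 is the brightness of that percentile, and levels of different probes are not set against each other. The Krtap5-1 probe, the brightest of the ultra-high-sulfur class, had processed intensities of 4420, 6180, 5790 and 2990 on vehicle arrays 1 to 4 and of 2070, 3570, 1720 and 2390 on enalapril arrays 1 to 4. The 3 dim members were Krtap13, Krtap19-5 and Krtap20-2, well above background on 1, 1 and 0 arrays. They were not tested, and both group means of each lay below the lowest signal that counts as well above background, so no fold is given. Krtap19-4 was well above background on all 4 vehicle arrays and on enalapril 2 and 3 only.

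On each array 67.1% to 72.7% of spots were well above background, no probe was saturated, and the 75th percentile of intensity lay between 821.5 and 1540. The epidermal keratins Krt5, Krt10 and Krt14 and the dermal collagen Col1a1 were well above background on all 8 arrays, as the tissue label says. The vehicle arrays shared 1 slide and 1 scan, and the enalapril arrays another slide and scan, so that a difference between slides and one between treatments cannot be told apart. Probe sequences were not used here, and binding of one probe to transcripts of near-identical family members was not tested.

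Most Krtap probes lay lower with enalapril, but the vehicle and enalapril mice overlapped and no probe passed the test. Of 31 tested probes, limma called 0 higher and 0 lower at an adjusted p under 0.05, while of all 28580 tested probes 10.4% were called, 3.82% higher and 6.61% lower. An unadjusted p under 0.05 was reached by 10 of the 31, all with the lower mean in enalapril, against 18.0% of all probes in that direction. The change was below 0 in 27 of 31, against 55.5% of all probes. With normexp background correction it was below 0 in 17 of 31, but there the median of all probes was itself 0.27. The Krtap median less that of all probes was -0.42 with normexp and -0.49 without it. With a normexp whose local backgrounds were repaired, 26 of 31 were below 0. Without normexp the median log2 change was -0.54 over the 31, and -0.05 over all probes. In 2 of the 31, Krtap5-2 and Krtap6-3, every enalapril array lay below every vehicle array, against 13.1% of all probes. In 0 of 31 did every enalapril array lie above, against 7.12% of all probes. The median standard error was 0.30 for the 31 probes and 0.15 for all probes, since the Krtap levels varied more between mice of 1 group. These probes share mice and in part genes, with 12 of the 34 probes in 5 genes, so the counts are not independent observations.

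**Figure D1:**
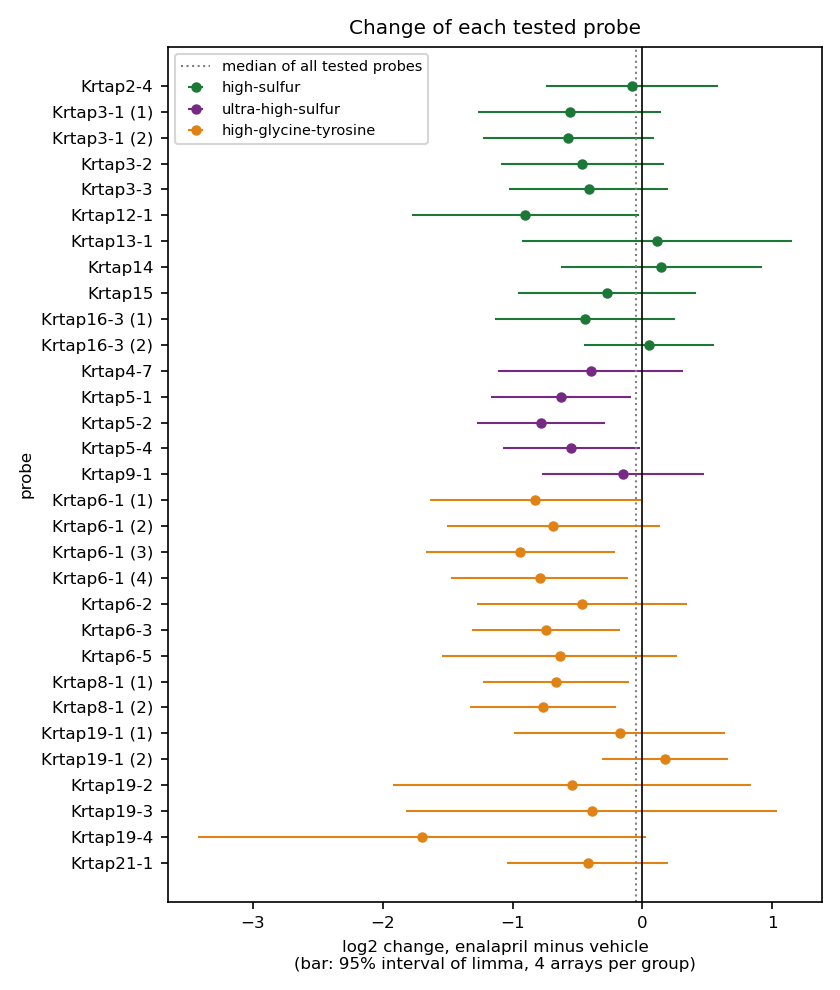
Change of each of the 31 tested Krtap probes on the log2 scale, enalapril minus vehicle, with limma's 95% interval over 4 arrays per group; colours mark the class, the dotted line is the median of all 28580 probes (-0.05) and numbers in brackets tell apart probes of 1 gene. Points lie below 0 for 27 probes, 10 intervals leave out 0, and no probe was called after adjustment over all probes.

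Among the 5 ultra-high-sulfur probes all changes were below 0, with a median of -0.55 and a range of -0.78 to -0.15. Krtap5-2 belongs to family 5, whose cysteine-rich proteins are made in the hair cuticle, and its probe came closest to the threshold of all members. Its levels were -3.29, -3.11, -3.69 and -3.99 in vehicle mice 1 to 4 and -4.06, -4.07, -4.46 and -4.60 in enalapril mice 1 to 4. The 2 groups did not overlap, although vehicle 4 lay close to enalapril 1 and 2. The log2 change was -0.78 ± 0.22 (SE, n = 4 per group; 95% interval -1.27 to -0.29), with an adjusted p of 0.0544 by limma. Whether it passed depended on the setting: quantile normalization gave an adjusted p of 0.0428 and normexp background correction a change of 0.28 in the other direction. A normexp with repaired local backgrounds kept the change below 0.

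The neighbouring genes Krtap5-1 and Krtap5-4 lie side by side on the chromosome and read alike across mice. Krtap5-1 had levels of 2.31, 2.00, 1.91 and 1.76 with vehicle and 0.95, 2.02, 1.07 and 1.45 with enalapril. Enalapril 2 was as high as vehicle 2, and the other 3 enalapril mice lay below every vehicle mouse. The change was -0.62 ± 0.24 (95% interval -1.16 to -0.09) with an limma adjusted p of 0.122, and for Krtap5-4 it was -0.55 ± 0.23 (adjusted p = 0.160). In the cortex proteins, Krtap4-7 differed by -0.40 ± 0.31 (adjusted p = 0.431) and Krtap9-1 by -0.15 ± 0.28 (adjusted p = 0.759).

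The high-sulfur class had 11 tested probes of 9 genes, 8 of them below 0, with a median of -0.41. Krtap12-1, a cuticle protein gene, had the largest difference of the class. It measured -2.47, -2.96, -3.56 and -4.04 in vehicle mice and -4.03, -3.55, -4.96 and -4.09 in enalapril mice. The groups overlapped, since vehicle 3 was level with enalapril 2 and vehicle 4 with enalapril 1. Its change was -0.90 ± 0.38 (95% interval -1.78 to -0.03; limma adjusted p = 0.160), and with normexp background correction it was 0.15. With repaired local backgrounds in normexp it stayed below 0. The 2 probes of Krtap3-1, a cortex protein gene, gave the same picture as each other. The brighter read 1.60, 1.32, 1.13 and 0.57 with vehicle and 0.29, 1.27, 0.13 and 0.66 with enalapril. Again enalapril 2 stood among the vehicle mice, and vehicle 4 among the enalapril mice. The changes of these probes were -0.57 ± 0.29 and -0.56 ± 0.31 (adjusted p = 0.227 and 0.263), and Krtap3-2 differed by -0.46 ± 0.28 (adjusted p = 0.298).

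The 3 high-sulfur probes above 0 were Krtap14 at 0.15, Krtap13-1 at 0.11 and 1 of 2 Krtap16-3 probes at 0.05. In Krtap13-1 and Krtap14 the highest mouse of all 8 was enalapril 2, at 0.00 and -1.02. The Krtap13-1 interval ran from -0.93 to 1.16, wide enough to hold the median change of the class. Krtap2-4, Krtap15 and Krtap3-3 stood at -0.08, -0.27 and -0.41, with adjusted p-values from 0.342 to 0.887. Krtap16-3 was placed in this class by its family number, and its protein composition was not checked.

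The high-glycine-tyrosine class had 15 tested probes of 10 genes, with 14 below 0 and a median of -0.66. Outside family 19, which was set apart after its values were seen, all 10 probes were below 0, between -0.94 and -0.42. By limma 6 of them had an unadjusted p under 0.05. Of all probes 55.5% were below 0, and 18.0% were lower with such a p. The 10 probes stand for 6 genes, and 7 of them belong to family 6. Krtap6-1 was measured by 4 probes, with changes of -0.94, -0.82, -0.79 and -0.68. The probe with the largest change read 2.15, 1.43, 1.42 and 0.89 in vehicle mice and 0.21, 0.83, -0.03 and 1.12 in enalapril mice. Vehicle 4 lay below enalapril 4, and the other vehicle mice lay above every enalapril mouse. That change was -0.94 ± 0.32 (95% interval -1.67 to -0.21; limma adjusted p = 0.0947).

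Krtap6-3, the brightest probe of the class, read 2.33, 1.73, 1.69 and 1.46 with vehicle and 0.82, 1.40, 0.58 and 1.45 with enalapril. The groups met without overlapping. Its change was -0.74 ± 0.25 (95% interval -1.31 to -0.17; adjusted p = 0.0923 by limma). Krtap8-1 encodes a cortex protein, and its 2 probes differed by -0.76 ± 0.25 and -0.66 ± 0.25 (adjusted p = 0.0838 and 0.118). Its first probe read 0.59, 0.25, 0.44 and 0.28 with vehicle, a narrow band, and -0.86, 0.40, -0.59 and -0.46 with enalapril. Only enalapril 2 reached the vehicle range. Krtap6-2, Krtap6-5 and Krtap21-1 differed by -0.47, -0.64 and -0.42, with adjusted p-values of 0.418, 0.321 and 0.339.

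Whether single members passed depended on the mice included. Without enalapril 4, limma called 4 probes lower, 3 of Krtap6-1 and the Krtap6-3 probe, when 24.7% of all tested probes were called. Without enalapril 2 it called the Krtap8-1 probe (adjusted p = 0.0422), when 1.47% of all probes were called. No other fit that left out 1 array called a Krtap probe. Over these 8 fits the median change of the members ran from -0.76 without enalapril 2 to -0.36 without vehicle 1.

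The members varied together from mouse to mouse within each group. To show this, each probe's level was set against its own mean over the 8 arrays. The median deviation of the 31 probes was 0.62, 0.30, 0.13 and -0.16 in vehicle mice 1 to 4, and -0.69, 0.33, -0.55 and -0.16 in enalapril mice 1 to 4. Vehicle 1 was above the probe's own mean in all 31 probes and the highest of the 8 arrays in 21. Enalapril 1 was below it in all 31 and the lowest in 18, and enalapril 3 was the lowest in 10. Enalapril 2 was above it in 24, between vehicle 2 with 28 and vehicle 3 with 21, while vehicle 4 and enalapril 4 were each above it in 11. Picked for their contrast, some mice of the same group differed by more than the median change of -0.54 between the groups. Vehicle 1 exceeded vehicle 4 in 29 of 31 probes, with a median difference of 0.79, where the median over all probes was 0.03. Enalapril 2 exceeded enalapril 1 in 30 of 31 by a median of 1.07, against 0.05 over all probes.

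**Figure D2:**
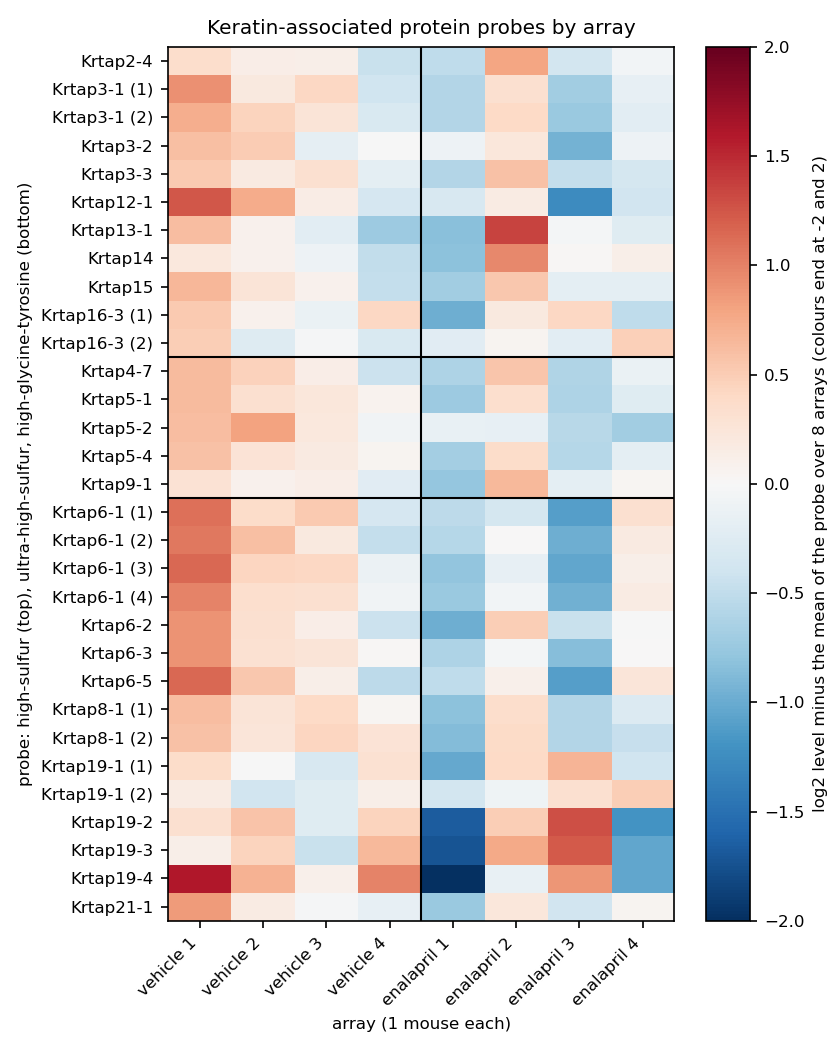
Level of each tested Krtap probe on each array as a deviation (log2) from the probe's own mean over 8 arrays, with classes separated by horizontal lines and vehicle from enalapril by the vertical line; colours end at -2 and 2. Vehicle 1 is red in every row and enalapril 1 blue in every row, enalapril 2 is red in most rows, and the Krtap19 rows turn red at enalapril 3.

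In most family 19 probes the enalapril mice stood in another order. Its 5 tested probes had median deviations of 0.32, 0.45, -0.25 and 0.44 in vehicle mice, and of -1.67, 0.40, 0.89 and -1.03 in enalapril mice. Enalapril 3, the lowest mouse for 10 of the 26 probes of other families, was the highest of all for 3 of these 5. Krtap19-2 (named Krtap16-1 in the array design) read -3.96, -3.72, -4.53 and -3.84 with vehicle and -5.95, -3.80, -3.00 and -5.47 with enalapril. Krtap19-3 (Krtap16-5 in the design) read -3.32, -2.99, -3.89 and -2.79 with vehicle and -5.17, -2.68, -2.21 and -4.47 with enalapril. In both genes enalapril 3 stood above every vehicle mouse, enalapril 2 near the highest of them, and enalapril 1 and 4 well below all of them. Enalapril 2 exceeded enalapril 3 in 25 of the 26 probes of other families, with a median difference of 0.93, and in 0 of 5 probes of family 19, with a median of -0.46. Outside the family by name, 1 Krtap16-3 probe had a like order, at -1.23, -0.06, 0.15 and -0.76 with enalapril. The other probe of that gene did not, at -1.19, -0.91, -1.18 and -0.49. Krtap16-3 lies next to the family 19 gene Krtap19-9b, and whether it is akin to family 19 was not tested. Not all of family 19 shared the order, since 1 Krtap19-1 probe was highest at enalapril 4 (0.75). Families 13 and 14, with 1 tested probe each, did not have this order. Their deviations were highest at enalapril 2 (1.35 and 0.96), with enalapril 3 at -0.04 and 0.03. The family 19 pattern was noticed in these data and was not tested.

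Intervals of the group difference were wide in this family. Krtap19-4 had a fitted difference of -1.70 ± 0.76 (95% interval -3.43 to 0.03; limma adjusted p = 0.177), from -3.82, -4.72, -5.32 and -4.42 with vehicle and -8.53, -5.56, -4.53 and -6.45 with enalapril. Enalapril 1 and 4, its lowest arrays, were the ones not well above background, so the size of this difference rests on levels near background. Without enalapril 1 it was -0.94 and without enalapril 3 it was -2.28, and with normexp background correction it was 0.44. With repaired local backgrounds in normexp it stayed below 0. Krtap19-2 differed by -0.54 ± 0.60 and Krtap19-3 by -0.39 ± 0.63. The 2 probes of Krtap19-1 disagreed in sign, at 0.18 ± 0.21 (adjusted p = 0.619), the largest positive change of any member, and -0.17 ± 0.36 (adjusted p = 0.785). The first of them read -0.19 in the uncentred series matrix values. In the RefSeq gene order Krtap19-1 to Krtap19-5 follow each other, with Krtap15 before them and Krtap19-9b and then Krtap16-3 after them. The dim Krtap19-5 probe was well above background on enalapril 3 alone.

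The RefSeq table gave a Krtap name to 15 further probes that the array design lists under clone or predicted names. All 15 had a change below 0, against 55.5% of all probes, with a median of -0.54. Krtap17-1, an ultra-high-sulfur gene by family, was the 1 probe of the 15 that passed, where 6.61% of all probes were called lower. It read 2.00, 1.49, 1.27 and 0.94 with vehicle and 0.39, 0.57, 0.17 and 0.60 with enalapril, without overlap between the groups. It fell by 0.99 ± 0.22 (limma adjusted p = 0.0309). The call was kept in 2 of 8 fits that left out 1 array, where the adjusted p reached 0.0792. Krtap22-2 and Krtap31-1 had changes of -1.02 ± 0.43 (adjusted p = 0.152) and -0.79 ± 0.29 (adjusted p = 0.113), the latter with a second probe at -0.57. Krtap19-9b, the family 19 gene in this set, read -1.20, -1.08, -1.98 and -1.96 with vehicle and -2.60, -1.07, -1.19 and -2.17 with enalapril. Among its enalapril mice 2 and 3 were again high and 1 and 4 low.

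The hair keratins, the filaments that keratin-associated proteins bind, were high and low in many of the same mice, except vehicle 2 and 3. Their 13 probes had median deviations of 0.59, -0.06, 0.49 and -0.42 with vehicle and of -0.76, 0.42, -0.48 and -0.17 with enalapril. Their changes were below 0 in 11 of 13 (median -0.44), against 55.5% of all probes. Vehicle 2 was above a probe's own mean in 6 of 13 hair keratins and vehicle 3 in 13, against 28 and 21 of the 31 Krtap probes. Of the 13 hair keratin probes 1 was called lower, against 6.61% of all probes. It was that of the cuticle keratin Krt32, with a fall of 0.77 ± 0.20 (limma adjusted p = 0.0463). Krt32 kept the call in 1 of 8 fits that left out 1 array. The 11 probes of the inner root sheath, the layer that moulds the shaft, and its companion layer had deviations of 0.54, 0.28, 0.23 and -0.46 with vehicle and of -0.38, 0.09, -0.47 and 0.07 with enalapril. By limma 0 of these 11 were called, and 1 had an unadjusted p under 0.05, against 10.4% and 29.4% of all probes. Their lowest p-values were those of Krt75 at -0.67 (adjusted p = 0.131) and Krt25 at -0.59 (adjusted p = 0.180).

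**Figure D3:**
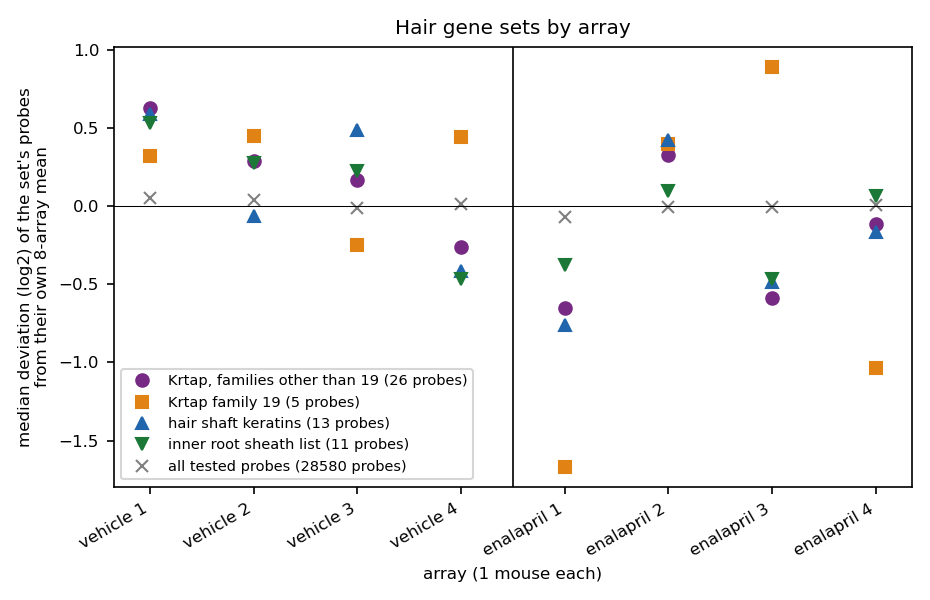
Median deviation (log2) of the probes of each set from their own 8-array means, by array: Krtap families other than 19, Krtap family 19, hair shaft keratins, the inner root sheath list and all tested probes. All probes stay near 0, the other Krtap families and hair keratins are lowest at enalapril 1 and high at vehicle 1 and enalapril 2, and family 19 reaches 0.89 at enalapril 3 and -1.67 at enalapril 1.

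Other hair shaft proteins moved both ways, with 2 of 10 tested probes called higher and 1 lower, against 3.82% and 6.61% of all probes. S100a3, a calcium-binding cuticle protein, fell by 1.04 ± 0.25 (limma adjusted p = 0.0372; kept in 1 of 8 fits that left out 1 array). The desmosomal cadherin Dsc2 rose in 2 of its 3 probes, by 0.69 ± 0.12 (adjusted p = 0.0175; kept in 6 of 8) and 0.45 ± 0.12 (adjusted p = 0.0473; kept in 1 of 8), with the third at 0.18. The list of hair differentiation regulators, which holds ligands and receptors beside transcription factors, had a median of 0.14 over 26 tested probes. Of these, 8 were below 0, against 55.5% of all probes. Hoxc13 was at 0.55 ± 0.31 and Foxn1 at 0.41 ± 0.24 (adjusted p = 0.271 and 0.284), and Msx2 at -0.47 ± 0.14 (adjusted p = 0.0721). The forkhead gene Foxq1 rose by 0.89 ± 0.19 (adjusted p = 0.0293; kept in 2 of 8). Among 21 probes of the stem cell and outer root sheath list, Lgr5 rose by 1.00 ± 0.12 (adjusted p = 0.00918) and kept its call in all 8 fits that left out 1 array, while a second, dim Lgr5 probe was not tested. The Lgr5 call was lost with the replicate block (adjusted p = 0.0583), E1A control centring (0.0515), the series matrix (0.196) and normexp (0.390). With normexp 0 of all 28580 probes were called. The Lgr5 call was kept under the other 16 of 20 alternatives, among them the normexp with repaired local backgrounds. In the same list 1 of 3 Sox9 probes rose, by 1.31 ± 0.32 (adjusted p = 0.0401; kept in 2 of 8), the others standing at 0.27 and 0.39, and Cd34 fell by 0.41 ± 0.10 (adjusted p = 0.0430; kept in 1 of 8).

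Markers of some other cell types also had lower means with enalapril. Of the skeletal muscle list 5 of 11 probes were called lower, against 6.61% of all probes. Its median deviations ran from -0.03 to 0.67 over vehicle arrays and from -0.49 to -0.18 over enalapril arrays. Of the adipocyte list 2 of 7 were called lower, against the same 6.61%, with deviations of 0.17 to 0.35 over vehicle and -0.34 to 0.13 over enalapril arrays. The melanocyte list had 0 of 5 probes called by limma and 1 with an unadjusted p under 0.05, against 10.4% and 29.4% of all probes. All 5 of its changes were below 0 (median -0.39), against 55.5% of all probes. Its deviations were 0.09, 0.71, 0.11 and -0.09 with vehicle and -0.64, -0.24, -0.03 and 0.19 with enalapril. Enalapril 1 was the lowest, as in the Krtap probes, but those stood at 0.33 on enalapril 2 and -0.55 on enalapril 3. The epidermal list had 1 of 12 called higher and 0 lower, against 3.82% and 6.61% of all probes. Its deviations ran from -0.24 to 0.27 over vehicle and from -0.11 to 0.15 over enalapril arrays. The median deviation of the muscle list was below 0 on all 4 enalapril arrays, at -0.35 on enalapril 2, where that of the Krtap probes was 0.33. In 7 of the 11 muscle probes every enalapril array lay below every vehicle array, against 13.1% of all probes. The Myh4 and Atp2a1 probes overlapped between the groups. Both Myh4 probes read higher on enalapril 2 (6.42 and 5.87) than in the vehicle mean (5.94 and 5.68). The part of these cell types in the Krtap levels was not tested.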

How the data were processed

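Per the labels, RNA of dorsal skin from 8 mice was labelled with Cy3 and hybridised to 1-colour Agilent arrays. The deposited scanner values are spot intensities on a linear scale from Agilent Feature Extraction 9.1.3.1, per the file headers (the submitters' processing notes give 9.1), background-subtracted but not scaled between arrays. The deposited flags for outliers and for well above background are other values, of 0 or 1, and served to leave out spots and probes. In the deposited series matrix the values are the log2 of that processed intensity, uncentred. The genome build of the array design is not given in the sources used here.

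Of 45018 spots per array, control and outlier spots were left out, repeated spots of a probe were averaged as log2 values, and 47 of 41174 probes had no usable spot on some array. Each value is a log2 intensity less the 75th percentile of its array's non-control spots. Probes well above background on at least 4 of 8 arrays were tested with limma 3.58.1 in R 4.3.3 (lmFit, eBayes, two-sided, group as the only term; data.table, in version 1.17.8, read the files), with Benjamini-Hochberg adjustment over all 28580, and called at an adjusted p under 0.05. Errors of changes are limma's standard errors. The number of arrays limits the precision. The script was tested on simulated data.

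Of the 34 probes, 22 were named by accession, 10 by symbol and 2 by synonym in RefSeq's GRCm38.p6 annotation, whose symbols replaced 10 names. Classes follow the family number. Named with values were, per class, the called probes or otherwise the 4 with the smallest p, the brightest probe, the largest rise and fall, and in each other list up to 4 called probes or the 2 with the smallest p. Other probes given with values were chosen after their values were seen. The members, lists and rules were chosen with earlier results of these data known. Alternatives were, for scaling, quantile normalization, the array median and the series matrix; for background, normexp (offset 50); for probes, no filter, a filter on all arrays and 1 probe per gene; for the model, array weights, robust estimation with a trend, a replicate block and leaving out each array. E1A control centring and a normexp with repaired local backgrounds were added after seeing the data.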

Additional observations from a re-analysis of the deposited data

How the results depend on the processing

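The median Krtap change stayed below 0 under all 20 alternatives, from -0.91 with the uncentred series matrix to -0.15 with normexp, where the median of all probes was -0.41 and 0.27 against -0.05 as reported. Relative to that median it ran from -0.70 to -0.28. No alternative called a Krtap probe higher. The number called lower, 0 as reported, was 1 with quantile normalization (7.33% of all probes called), 1 with median centring (6.93%), 1 with the filter on all 8 arrays (11.7%) and 1 with a single probe per gene (14.2%), each time Krtap5-2. It was 3 with array weights (29.9%) and 9 with the series matrix (5.42%). Leaving out 1 array gave 0 to 4. In single genes the sign turned with normexp for Krtap12-1 (0.15), Krtap5-2 (0.28) and Krtap19-4 (0.44), and with the series matrix for Krtap19-1 (-0.19). With the repaired normexp none of these signs turned, and 26 of 31 changes were below 0. The repair replaced local backgrounds far above the array's median, found at 5 non-control spots of enalapril 3 and 0 of the other arrays. Normexp with and without the repair differed in nothing else. How these backgrounds acted on the signs was not tested.

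Calls over all probes, 1091 higher and 1888 lower as reported, fell to 0 and 0 with normexp, 602 and 1000 with the repaired normexp, 97 and 183 with E1A centring, 77 and 1471 with the series matrix, 687 and 1294 with median centring, and 504 and 888 without a filter. They numbered 3598 and 4936 with array weights. With quantile normalization 977 were higher and 1119 lower. Leaving out 1 array gave between 1.40% and 24.7% of probes called.

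With the replicate number as a block 0 Krtap probes were called (lowest adjusted p = 0.0618), and 30 higher and 8 lower over all probes. The labels do not say whether the numbers pair the mice. Deviations of same-numbered arrays correlated at -0.13, 0.08, 0.17 and 0.03, within the range of differently numbered arrays (-0.16 to 0.22). Such correlations cannot show whether the mice were paired. Slide and scan could not be fitted as blocks, because each held 1 group.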
